A study of Mus musculus with 8 samples.

Results

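The left ventricles of mice on a diet of free essential amino acids were compared with those of mice on the control diet, both 4 weeks after transverse aortic constriction (TAC). This operation narrows the aorta, so that the left ventricle pumps against high pressure. The members are 4 of the 8 RNA libraries of the series, 2 labelled TAC SFA-EAA and 2 labelled TAC SFA. The genes are the 16432 of 49671 in the deposited table with a normalised value of at least 1 in at least 2 of the 8 libraries. All mice were male C57BL/6N, 8 weeks old at the start. SFA is a low fat diet, and in SFA-EAA free essential amino acids take the place of 93.5% of its casein, the milk protein. The other 4 libraries come from sham-operated mice, 2 on each diet, and are given here only as a reference. The labels leave it unsaid whether each library is a different animal, so p-values reflect only how far these libraries spread, which may be technical.

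Pressure overload is known to enlarge heart muscle cells and to bring back genes of the fetal heart, such as the natriuretic peptides and the slow myosin, while fibroblasts lay down collagen and other matrix proteins. In the same hearts the genes of fatty acid oxidation, of the respiratory chain and of branched-chain amino acid breakdown are typically low, along with several potassium channels. Essential amino acids are the ones the body cannot make. Cells sense them through the mTORC1 kinase and the integrated stress response, and heart muscle burns the branched-chain ones in its mitochondria.

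Library totals ran from 5136441 to 6298743 in deposited values. All 8 markers of ventricular muscle, the labelled tissue, were present in every group. Among the 4 TAC libraries, TAC SFA replicate 2 stood apart in genes of neighbouring tissue. Its atrial light chain Myl7 was at 322 against 11.8 in the other TAC SFA library and 3.07 and 1.28 in the TAC SFA-EAA libraries. Its summed level of 8 valve and cartilage-like markers was 996 against 147, 60.5 and 21.8. Myl7 was higher still in sham SFA replicate 1, at 621, and ran from 2.71 to 43.0 in the remaining sham libraries. The atrial markers together summed to 7835 in TAC SFA replicate 2 and to 5460 in sham SFA replicate 1. In the other TAC libraries these sums ran from 3657 to 4993, a narrower gap than for Myl7. The libraries also differed in how their values followed the base composition of the transcripts. Deviations of 10221 genes from their means went down with GC content in TAC SFA-EAA replicate 2 (Spearman rho -0.75, across genes, which are not independent). They went up in TAC SFA-EAA replicate 1 (0.45) and in the TAC SFA libraries (0.35 and 0.46). The plot of deviation against GC content shows this split inside the TAC SFA-EAA group. Each result is therefore also given after subtracting from every library a smooth curve of this trend, called the GC correction below, which brought rho to within 0.011 of 0 in all 8 libraries.

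**Figure D1:**
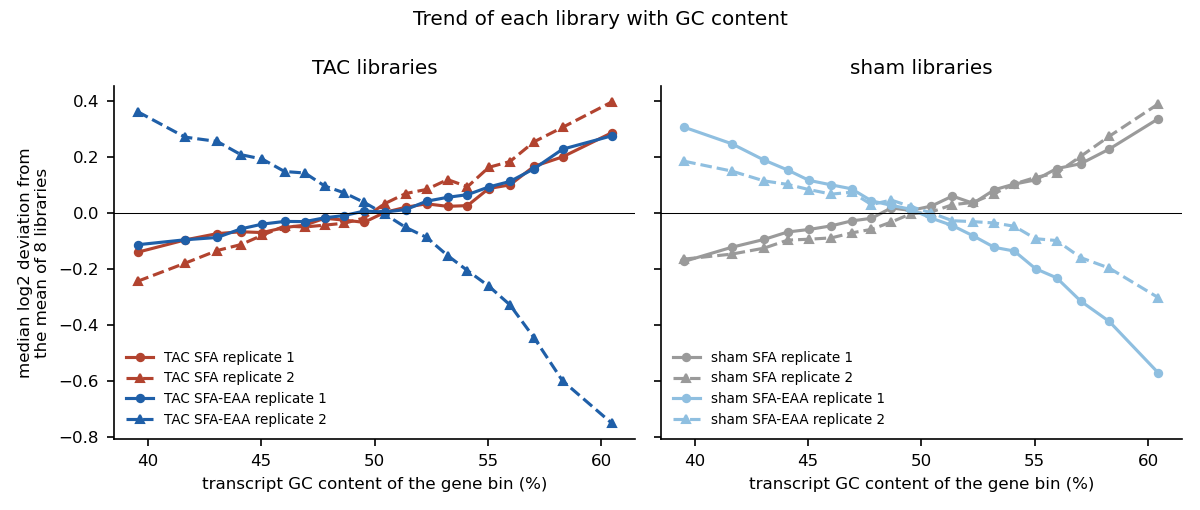
Transcript GC content in percent (horizontal axis, genes grouped in bins) against the bin's median log2 distance from the 8-library mean (vertical axis), 1 line per library, TAC on the left and sham on the right. TAC SFA-EAA replicate 2 descends while TAC SFA-EAA replicate 1 ascends with both TAC SFA libraries, and both sham SFA-EAA libraries descend.

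The comparison asked how the left ventricle under pressure overload differed between the diets. With the essential amino acid diet, 6 genes were lower and 2 were higher at a limma adjusted p under 0.05, out of 16432 (such genes are said to be called; 0.0365% and 0.0122% of the genes tested, 0.0487% together). The lower ones were the collagen genes Col1a2 and Col15a1, the matrix genes Adamtsl2 and Igfbp7, the angiotensin-converting enzyme gene Ace, and Uck2. The higher ones were the lipase gene Ces1d and the potassium channel gene Kcnv2. At an unadjusted p under 0.05 stood 2476 genes (15.1%), and 15.3% after the GC correction. As deposited, 1107 of the 16432 were higher and 1369 lower at that level, the background for such counts in the lists below. After the GC correction limma called 175 genes higher and 152 lower (1.06% and 0.925%, 1.99% together), and these held 7 of the 8. Igfbp7 was the exception, at an adjusted p of 0.295. With deposited values limma called 0 genes without TAC SFA replicate 2, 0 without TAC SFA-EAA replicate 2, 0 without any single sham library, 5 without TAC SFA replicate 1 and 1395 without TAC SFA-EAA replicate 1. After the GC correction the number was 402, 26, 306 and 109 without TAC SFA replicates 1 and 2 and TAC SFA-EAA replicates 1 and 2. In whole-tissue RNA, fewer cells of a type and less RNA per cell cannot be told apart.

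**Figure D2:**
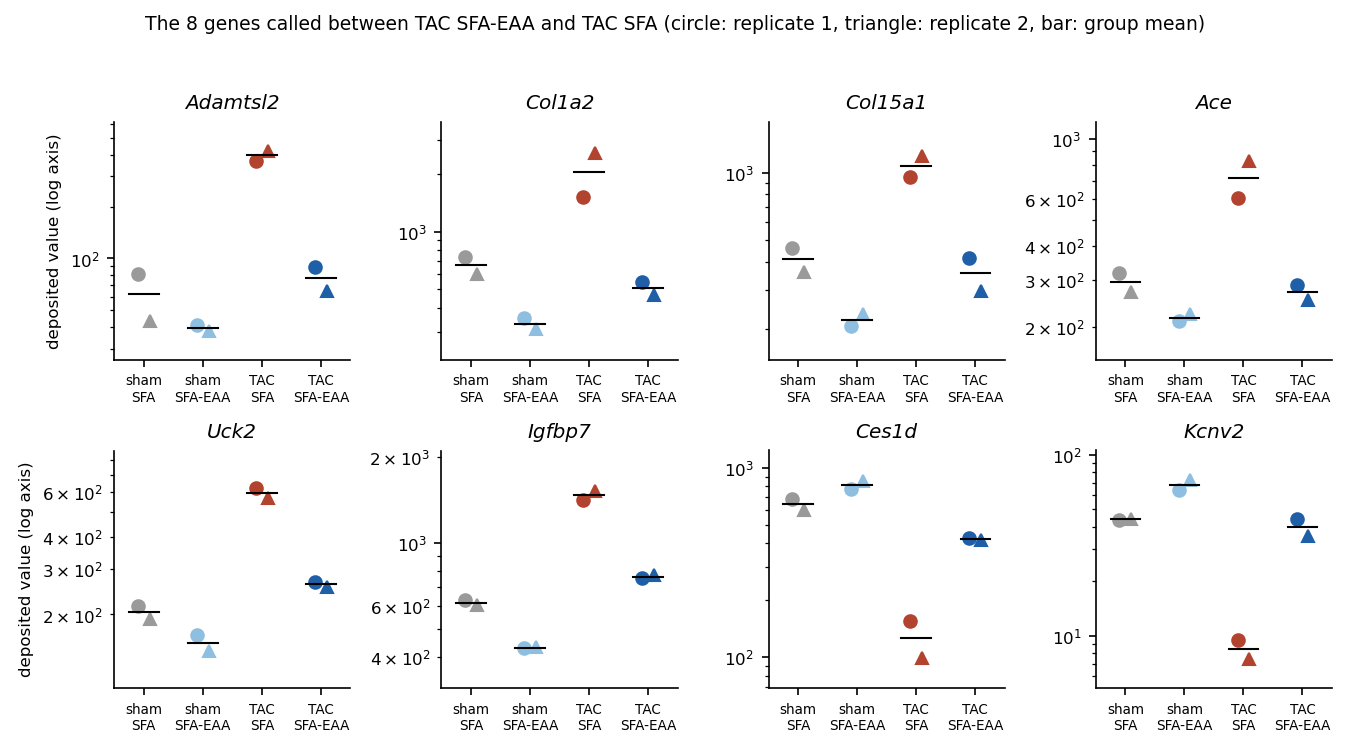
Deposited values (vertical log axes) of the 8 called genes in each library of the 4 groups (horizontal axes), circles for replicate 1, triangles for replicate 2 and bars for group means, n = 2 libraries per group. For each gene both TAC SFA-EAA libraries lie on the same side of both TAC SFA libraries; the means of Adamtsl2 were 395 and 77.1, those of Ces1d 127 and 421.

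Adamtsl2 encodes a secreted glycoprotein that binds latent TGF-beta binding proteins in the matrix (ENSMUSG00000036040, chromosome 2, 27079379 to 27108981, GRCm38 as are all positions here). Its values were 369 and 421 in TAC SFA against 89.4 and 64.9 in TAC SFA-EAA, 5.12-fold lower on the diet (log2 difference -2.36, SE 0.28, limma adjusted p = 0.0408). The TAC SFA-EAA values overlapped the range of the sham SFA libraries, 80.8 and 43.5. Col1a2, the second chain of type I collagen, the main fibre of scar tissue (ENSMUSG00000029661, chromosome 6, 4504814 to 4541544), was at 1519 and 2579.9 in TAC SFA against 549 and 466 in TAC SFA-EAA, 3.91-fold lower (-1.97, SE 0.23, limma adjusted p = 0.0408). The basement membrane collagen gene Col15a1 (ENSMUSG00000028339, chromosome 4, 47208161 to 47313167) was at 959 and 1185 in TAC SFA against 418 and 296 in TAC SFA-EAA, 3.03-fold lower (-1.60, SE 0.20, same adjusted p). In both collagen genes the groups were far apart, and TAC SFA replicate 2 was the highest library. Both were also lower on the diet in sham hearts. Col1a2 was at 735 and 599 in sham SFA against 353 and 310 in sham SFA-EAA, and Col15a1 at 461 and 359 against 208 and 234. Both TAC SFA-EAA values of Col1a2 lay below both sham SFA values. Igfbp7, a secreted protein that binds insulin-like growth factors (ENSMUSG00000036256, chromosome 5, 77349240 to 77408041), stood at 1417 and 1524 in TAC SFA against 752 and 772 in TAC SFA-EAA, a narrow spread on both sides and a 1.93-fold difference (-0.95, SE 0.10). Its log2 difference was -0.48 after the GC correction and did not pass.

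Ace, the enzyme that turns angiotensin I into the vasoconstrictor angiotensin II (ENSMUSG00000020681, chromosome 11, 105967945 to 105989964), stood at 607 and 832 in TAC SFA against 288 and 252 in TAC SFA-EAA, 2.63-fold lower (log2 difference -1.40, SE 0.17, limma adjusted p = 0.0408). The sham SFA libraries held 317 and 271, a range that the TAC SFA-EAA values overlapped. Uck2, a uridine-cytidine kinase that salvages pyrimidines for RNA synthesis (ENSMUSG00000026558, chromosome 1, 167222883 to 167285320), was at 621 and 569.8 in TAC SFA against 268 and 257 in TAC SFA-EAA, 2.26-fold lower (-1.18, SE 0.14). Here the TAC SFA-EAA libraries remained above the sham SFA libraries at 216 and 192. Ces1d, a carboxylesterase that cleaves stored triglyceride (ENSMUSG00000056973, chromosome 8, 93166068 to 93197838), was at 155 and 99.2 in TAC SFA against 426 and 416 in TAC SFA-EAA, 3.37-fold higher (1.75, SE 0.19, limma adjusted p = 0.0408), against 687 and 602 in sham SFA. It sits in a family of similar carboxylesterase genes, and how the authors assigned shared reads is not given in the sources used here. Kcnv2, a silent potassium channel subunit that modifies its partners (ENSMUSG00000047298, chromosome 19, 27322588 to 27337179), was at 9.44 and 7.45 in TAC SFA against 44.0 and 35.7 in TAC SFA-EAA, 4.32-fold higher (2.11, SE 0.26). One TAC SFA-EAA value reached the sham SFA values of 43.8 and 44.0.

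In the brackets that follow a gene's values stand its log2 difference, its limma adjusted p and then its adjusted p after the GC correction. The next genes in order of p did not pass with deposited values. The 20 genes with the smallest p-values included 15 that were lower and 5 that were higher on the diet, with limma adjusted p up to 0.0605. Of these 20 genes, 18 passed after the GC correction. None had overlapping groups, which choosing by small p with 2 libraries a side favours. Beyond the 8 called, the lower ones were the matrix genes Pcolce, Bgn, Col5a1, Col6a1 and Ctgf, the secreted serpin gene Serpinf1, the calcineurin feedback gene Rcan1, the tetraspanin gene Tspan9 and the natriuretic peptide gene Nppa. The higher ones were Fam134b, Kcnj3 and Nampt. Fam134b, also named Retreg1, a receptor that sends endoplasmic reticulum to autophagy, was at 1061 and 1030.0 in TAC SFA against 1905 and 1978 in TAC SFA-EAA (0.89, limma adjusted p = 0.0502, 0.00858 after the GC correction). Nampt, which makes the precursor of the coenzyme NAD, was at 673 and 574 in TAC SFA against 1062 and 1246 in TAC SFA-EAA (0.89, adjusted p = 0.0583, 0.00715 after the correction). Both genes rose after the correction.

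The hypertrophy and fetal program list had 26 genes tested, of which 25 had a negative difference and 23 had both TAC SFA-EAA libraries below both TAC SFA libraries, against 21.1% of all genes tested. None was called with deposited values by limma, where 21 were lower at an unadjusted p under 0.05. After the GC correction 10 fell and 0 rose: Nppa, Myh7, Rcan1, Ankrd1, Fhl1, Xirp2, Synpo2l, Actn1, Enah and Flnc. The list's median log2 difference was -0.96, or -0.85 after the correction, against -0.03 and -0.02 over all genes. The number of corrected falls was 12, 1, 7 and 6 without TAC SFA replicates 1 and 2 and TAC SFA-EAA replicates 1 and 2. The same list had a median of -0.21 between the diets in sham hearts as deposited, and of -0.05 after the correction.

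Nppa, the atrial natriuretic peptide that the strained ventricle secretes (ENSMUSG00000041616, chromosome 4, 148000722 to 148002079), stood at 10346 and 20406 in TAC SFA against 4437 and 3343 in TAC SFA-EAA (3.77-fold lower, log2 difference -1.92, SE 0.28, limma adjusted p = 0.0605, 0.00392 after the GC correction). Both TAC SFA-EAA libraries were still above the sham SFA libraries at 1299.5 and 1013. Its neighbour Nppb, the B-type natriuretic peptide (ENSMUSG00000029019, chromosome 4, 147985788 to 147987205), was at 4184 and 4697 in TAC SFA against 2771 and 4019 in TAC SFA-EAA, groups that did not overlap but nearly touched (-0.41, SE 0.18, limma adjusted p = 0.321, 0.0979 after the correction). The difference between Nppa and Nppb in the size of their response was not tested. Myh7, the slow beta-myosin of the fetal ventricle (ENSMUSG00000053093, chromosome 14, 54970688 to 54994634), was at 10894 and 20121 in TAC SFA against 6402 and 3016 in TAC SFA-EAA (-1.75, adjusted p = 0.146, 0.0408 after the correction). Acta1, skeletal alpha-actin, was at 20280.1 and 15142 in TAC SFA against 5475 and 4484 in TAC SFA-EAA (-1.82, adjusted p = 0.118, 0.0676 after the correction, so it passed in neither). Both sarcomere genes were above the sham SFA values of 569.5 and 1143 and 1220.0 and 2106 in every TAC library.

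Rcan1, an inhibitor of the phosphatase calcineurin that calcineurin itself induces, was at 1996 and 1805 in TAC SFA against 594 and 872 in TAC SFA-EAA (-1.40, adjusted p = 0.0548, 0.00858 after the GC correction). Synpo2l, a protein of the sarcomere's Z-disc, was at 2719 and 3434 in TAC SFA against 1474 and 1242 in TAC SFA-EAA (-1.18, adjusted p 0.0605 and 0.0267). Fhl1, a LIM domain protein of the sarcomere, was at 1733 and 1847 in TAC SFA against 794 and 1040.4 in TAC SFA-EAA (-0.98, adjusted p 0.0673 and 0.00483). In these 3 genes the 4 libraries fell into 2 separate pairs, with the TAC SFA pair the higher. Tnfrsf12a, the receptor of the cytokine TWEAK, was at 746 and 816 in TAC SFA against 499.8 and 469 in TAC SFA-EAA, and its log2 difference was -0.69 as deposited and -0.23 after the correction (0.14 when TAC SFA-EAA replicate 1 was also left out).

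The start regions of 3 members are shown because the genes stand for the 3 groups that lead this comparison, a called matrix regulator, a called collagen and a natriuretic peptide. They are the 250 bases before the RefSeq start on the + strand of GRCm38.p6, 5′ to 3′, and capitals mark the only motif found in them of 9 searched.
Adamtsl2, chr2:27079129-27079378: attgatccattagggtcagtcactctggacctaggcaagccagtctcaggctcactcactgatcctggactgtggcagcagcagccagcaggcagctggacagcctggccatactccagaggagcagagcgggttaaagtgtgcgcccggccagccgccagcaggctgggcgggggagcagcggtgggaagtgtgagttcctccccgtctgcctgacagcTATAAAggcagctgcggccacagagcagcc
Col15a1, chr4:47207762-47208011: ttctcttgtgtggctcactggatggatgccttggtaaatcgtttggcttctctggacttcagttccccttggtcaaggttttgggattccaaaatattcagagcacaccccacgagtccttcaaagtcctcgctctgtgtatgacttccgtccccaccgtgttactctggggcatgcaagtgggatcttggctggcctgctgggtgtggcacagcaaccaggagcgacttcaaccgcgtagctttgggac
Nppa, chr4:148000472-148000721: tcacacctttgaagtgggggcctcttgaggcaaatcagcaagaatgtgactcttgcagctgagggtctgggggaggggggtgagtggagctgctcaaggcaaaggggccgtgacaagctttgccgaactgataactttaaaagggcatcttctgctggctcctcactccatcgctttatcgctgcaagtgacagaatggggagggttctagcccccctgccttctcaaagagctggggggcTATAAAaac
The motif is the TATA box TATAAA, which starts 30 bases before the start of Adamtsl2 and 9 bases before that of Nppa. It stands in 12.4% of 32851 mouse promoters of this length. The other 8 included the E-box CACGTG (6.02% of promoters), the D-box TTANGTAA (2.06%) and the amino acid response element TGATGNAA (3.45%). They also included CCAAT (33.9%), AGATAA (9.99%) and CATTCC (12.6%). The last 2 were the full palindromic glucocorticoid element (0.00913%) and the PPAR direct repeat (0.0335%). Both strands were searched, and none of these motifs contains another. RefSeq promoters were matched for 6 of the 8 called genes, and a match is a description of letters, not of a bound site.

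The extracellular matrix and fibrosis list had the lowest median of the 30 pathway lists. All 54 members tested had a negative difference. In 51 (94.4%) both TAC SFA-EAA libraries were below both TAC SFA libraries, against 21.1% of all genes. Limma called 2 lower with deposited values (Col1a2 and Col15a1) and 35 lower after the GC correction, with 0 higher in either. The median log2 difference was -1.36, a 2.57-fold lower level. It was -1.26 after the correction. Between the diets in sham hearts the list's median was -0.54 as deposited and -0.35 after the correction. There 29 of the 54 members had both SFA-EAA libraries below both SFA libraries and 6 had both above. Over all genes each of these shares was 27.6%. Without TAC SFA replicate 2 the corrected falls numbered 8, and without TAC SFA replicate 1 and TAC SFA-EAA replicates 1 and 2 they numbered 39, 16 and 20. The summed fibroblast markers were 13896 and 22143 in the TAC SFA libraries and 11223 and 9400 in the TAC SFA-EAA libraries; their part in the matrix differences was not tested.

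**Figure D3:**
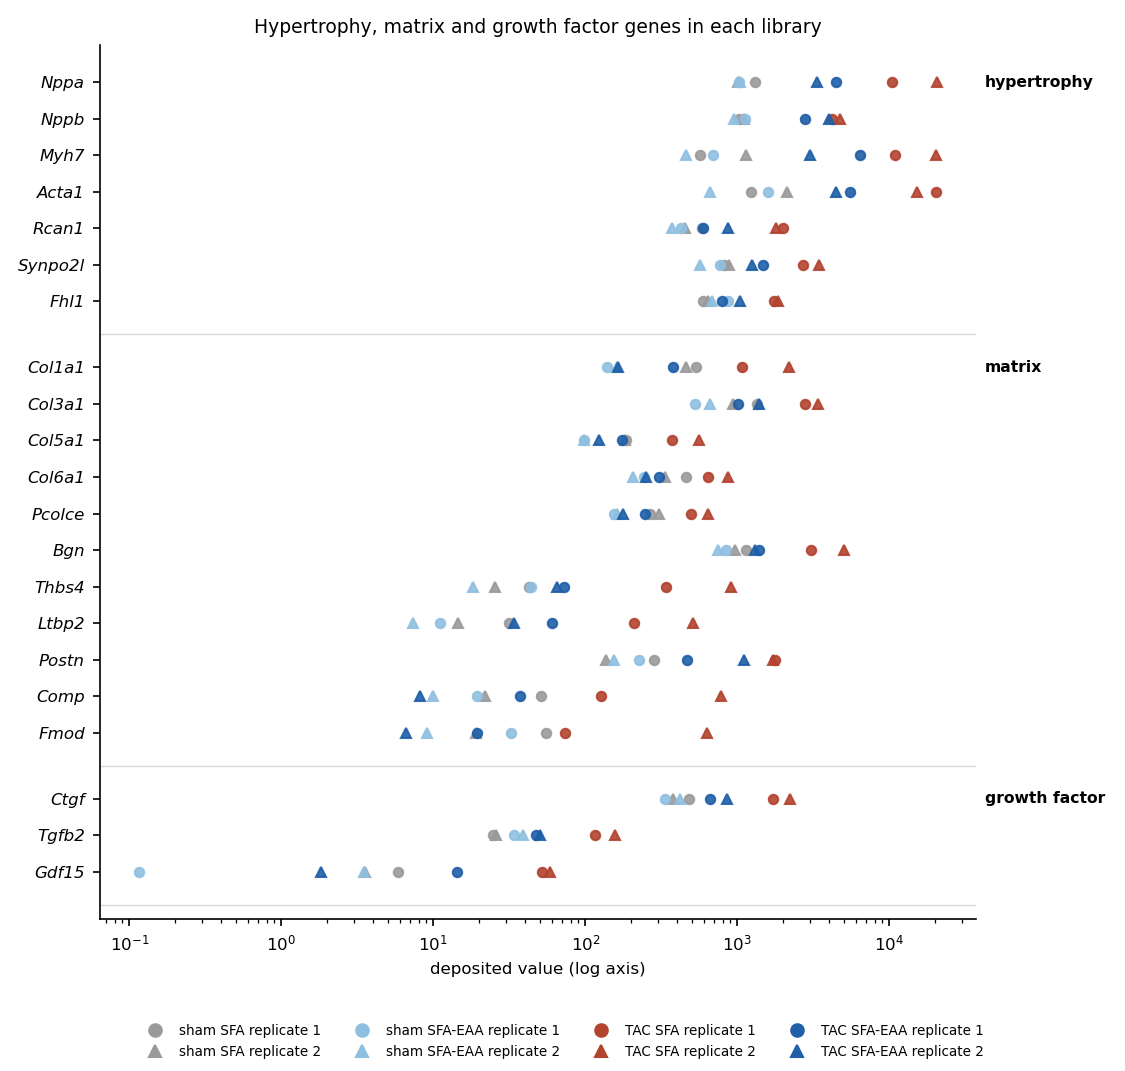
Deposited values (horizontal log axis) of hypertrophy, matrix and growth factor genes (rows) in the 8 libraries, red for TAC SFA, dark blue for TAC SFA-EAA, grey and light blue for the sham groups, circles for replicate 1 and triangles for replicate 2. In every row both dark blue symbols lie to the left of both red ones, as for Nppa at 4437 and 3343 against 10346 and 20406. Most rows are genes named for small p-values or by a rule that asked for groups apart, which favours this layout.

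Among the fibre-forming collagens, Col1a1, the partner chain of Col1a2, was at 1070.0 and 2190.2 in TAC SFA against 374 and 165 in TAC SFA-EAA (6.14-fold lower, -2.62, SE 0.39, limma adjusted p = 0.064, 0.00221 after the GC correction). Col3a1, of the finer type III fibres, was at 2762 and 3368 in TAC SFA against 1014 and 1396 in TAC SFA-EAA (-1.36, adjusted p 0.0645 and 0.00253). Col5a1, which starts collagen fibrils, was at 371 and 562 in TAC SFA against 173 and 122 in TAC SFA-EAA (-1.64, 0.0525 and 0.00407). In each of these collagen genes TAC SFA replicate 2 was the highest library and the groups did not overlap. Each also had both sham SFA-EAA libraries below both sham SFA libraries. Col1a1 was at 537 and 458 in sham SFA against 139 and 162 in sham SFA-EAA. The beaded-filament collagen gene Col6a1 was at 640.3 and 867 in TAC SFA against 303 and 252 in TAC SFA-EAA, and Pcolce, which helps trim procollagen, at 492 and 640.2 in TAC SFA against 247 and 177 in TAC SFA-EAA (adjusted p after the correction 0.0154 and 0.00304). Bgn, the small proteoglycan biglycan, was at 3064 and 5062 in TAC SFA against 1387 and 1304 in TAC SFA-EAA (-1.55, 0.0525 and 0.00253). All of these fell after the correction.

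Other secreted matrix proteins included the widest differences of the list. Thbs4, a thrombospondin of stressed heart muscle, was at 339 and 913 in TAC SFA against 71.9 and 64.6 in TAC SFA-EAA (-3.01, SE 0.50, limma adjusted p 0.0673, 0.00858 after the correction). Ltbp2, a latent TGF-beta binding protein, was at 209 and 509.7 in TAC SFA against 60.7 and 34.0 in TAC SFA-EAA (-2.82, 0.0767 and 0.0175). Postn, periostin, a marker of activated fibroblasts, was at 1777 and 1727 in TAC SFA against 463 and 1113 in TAC SFA-EAA, with TAC SFA-EAA replicate 2 nearer to the TAC SFA level than to its own partner (-1.29, 0.221 and 0.031). Spp1, osteopontin, was low everywhere, at 16.0 and 50.4 in TAC SFA against 1.06 and 2.57 in TAC SFA-EAA (0.015 after the correction). Fmod, fibromodulin, and Comp, cartilage oligomeric matrix protein, had the largest fitted log2 differences of the list, -4.12 and -4.08. In TAC SFA replicate 2 Fmod was at 627 and Comp at 782, against 73.5 and 127 in TAC SFA replicate 1. The valve, cartilage-like and atrial markers were high in that same library, and their part in this was not tested. Comp is itself 1 of those 8 valve and cartilage-like markers. Without it the other 7 summed to 19.98 and 214 in TAC SFA and 23.6 and 13.6 in TAC SFA-EAA, so TAC SFA replicate 2 still stood apart and the other TAC SFA library lay between the TAC SFA-EAA libraries.

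The TGF-beta, IGF and growth factor list had 36 genes tested, 29 with a negative difference (median -0.53, -0.46 after the GC correction). In 21 (58.3%) both TAC SFA-EAA libraries were below both TAC SFA libraries, against 21.1% of all genes. Its 2 calls with deposited values were Igfbp7 and Ace, and after the correction Ace, Tgfb2 and Hbegf fell and Agtr1a rose. The corrected falls numbered 5, 1, 3 and 3 without TAC SFA replicates 1 and 2 and TAC SFA-EAA replicates 1 and 2, and the corrected rises 0, 0, 0 and 1. Tgfb2, a TGF-beta ligand, was at 116 and 157 in TAC SFA against 47.3 and 49.9 in TAC SFA-EAA (2.74-fold lower, -1.45, limma adjusted p = 0.0642, 0.00689 after the correction), so that the TAC SFA pair stood well clear of all other libraries. Ctgf, a matricellular target of TGF-beta and mechanical load, was at 1725 and 2225 in TAC SFA against 664 and 856 in TAC SFA-EAA (-1.38, 0.0548 and 0.00392). Gdf15, a secreted stress cytokine, was at 52.1 and 58.4 in TAC SFA against 14.4 and 1.81 in TAC SFA-EAA (-3.09, 0.166 and 0.0695), too uneven within the diet group to pass. Agtr1a, the type 1 receptor of angiotensin II, was at 135 and 123 in TAC SFA against 243 and 197 in TAC SFA-EAA, higher on the diet (0.76, 0.111 and 0.0327), the opposite side to Ace. The TAC SFA-EAA values of Agtr1a spanned those of sham SFA, 239.7 and 212.

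Several channel genes lay on the other side. In the ion channel and connexin list, 10 of 23 members had both TAC SFA-EAA libraries above both TAC SFA libraries, against 21.7% of all genes, and 0 had both below. Limma called 1 higher with deposited values, Kcnv2, and 5 higher after the GC correction, where Kcnj3, Kcnd2, Kcnip2 and Scn10a joined it. In sham hearts 3 of the 23 had both SFA-EAA libraries above both SFA libraries and 13 had both below. Over all genes each of these shares was 27.6%. The list's sham median was -0.30, or -0.03 after the correction. Kcnj3, the inward rectifier that answers the vagus nerve, was at 160.4 and 139 in TAC SFA against 291 and 332 in TAC SFA-EAA (2.08-fold higher, 1.05, SE 0.15, limma adjusted p = 0.0552, 0.00483 after the correction). Kcnd2, a pore subunit of the transient outward current that shapes early repolarisation, was at 33.2 and 26.1 in TAC SFA against 59.5 and 99.3 in TAC SFA-EAA (1.36, 0.124 and 0.0287). Scn10a, a sodium channel gene, was at 3.82 and 1.43 in TAC SFA against 14.3 and 10.7 in TAC SFA-EAA (1.97, 0.128 and 0.0413), which in TAC SFA is close to the value of a few reads. The 5 corrected rises numbered 1 without TAC SFA replicate 2 and 2 without TAC SFA-EAA replicate 2, and the list's median was 0.07 as deposited, 0.31 after the correction and -0.11 without TAC SFA-EAA replicate 1 as deposited.

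Genes of adult contraction and calcium handling had log2 differences from -0.32 to 0.67, with a median of 0.10. Of 24 tested, 14 had a positive difference. Both diet libraries were above in 10 (41.7%), against 21.7% of all genes, and both were below in 1. Limma called 0 with deposited values (4 higher at an unadjusted p under 0.05) and 1 after the GC correction, Hrc. Trdn had the largest difference, 0.67 as deposited and 0.30 after the correction (limma adjusted p 0.165 and 0.0956). That of Pln was 0.50 as deposited and 0.26 after the correction (limma adjusted p 0.228 and 0.348). Atp2a2, the calcium pump SERCA2a, was at 56123 and 52431 in TAC SFA against 64114 and 66916 in TAC SFA-EAA (0.27, SE 0.19, limma adjusted p = 0.529). Myh6, the fast alpha-myosin of the adult mouse heart, was at 80930.4 and 101342 in TAC SFA against 102083 and 51541 in TAC SFA-EAA, so the diet libraries lay on both sides of the TAC SFA pair (-0.32, adjusted p = 0.676). Hrc, a calcium-binding protein of the sarcoplasmic reticulum, was at 3754 and 3801 in TAC SFA against 5291 and 4744 in TAC SFA-EAA (0.41, 0.183 and 0.0124).

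**Figure D4:**
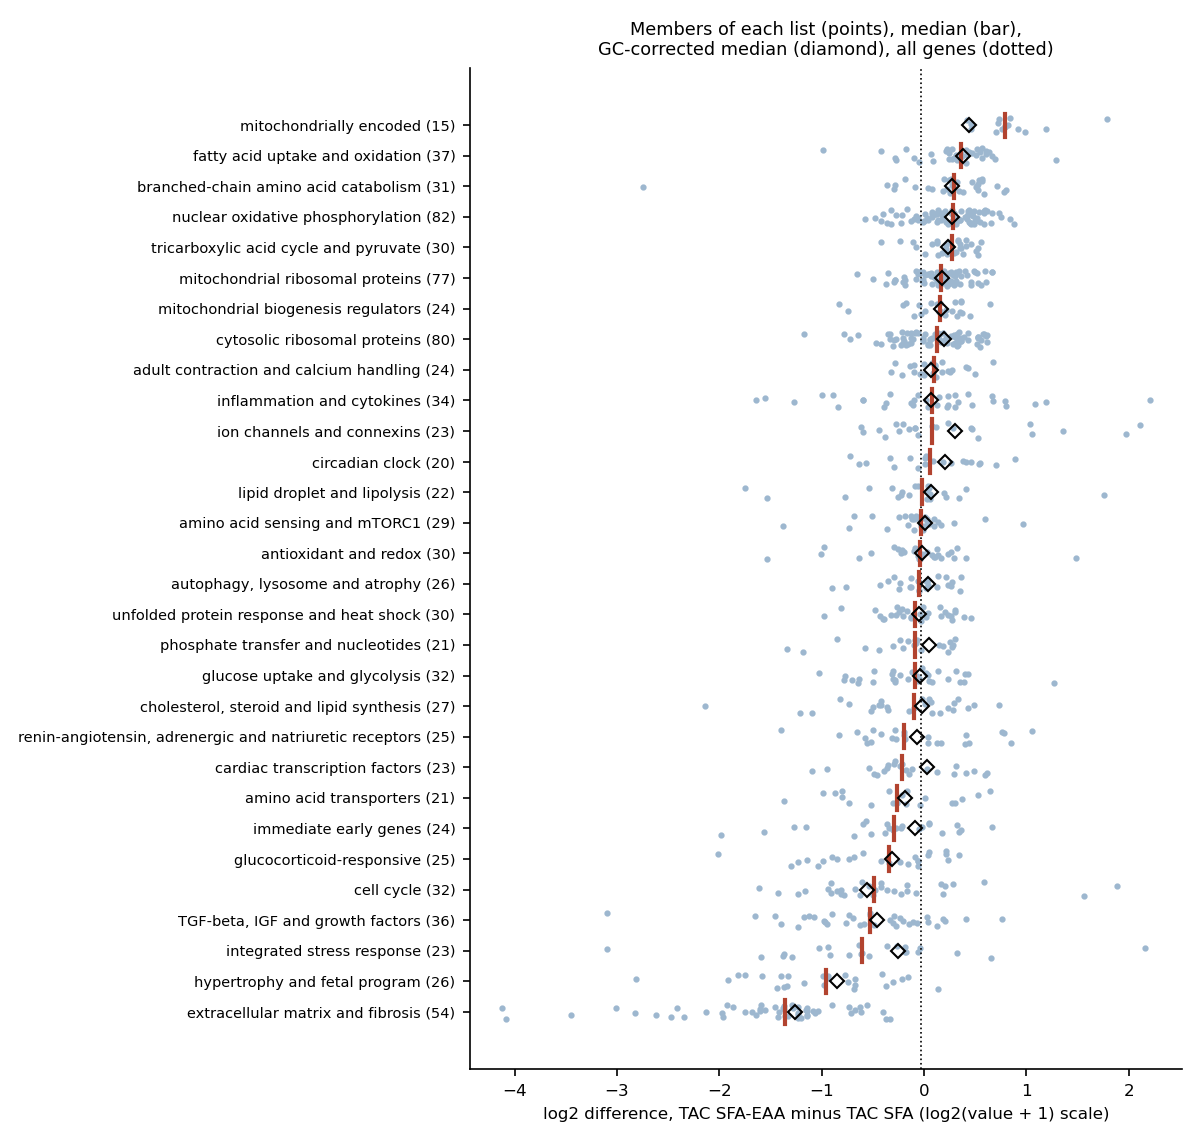
Log2 difference between TAC SFA-EAA and TAC SFA (horizontal axis) of each member (points) of the 30 pathway lists (rows, number tested in brackets), with the median as a bar, the median after GC correction as a diamond and the median of all genes as a dotted line. The matrix list lies lowest with a median of -1.36 and the mitochondrially encoded list highest with 0.79, or 0.43 after the correction.

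Mitochondrial fuel genes were the other group on the higher side. In the fatty acid uptake and oxidation list 30 of 37 members had a positive difference. In 22 (59.5%) both diet libraries were above, against 21.7% of all genes. The median was 0.36, or 0.38 after the GC correction. Limma called 0 with deposited values (18 higher and 1 lower at an unadjusted p under 0.05). After the correction 11 rose and 0 fell, and these 11 became 13, 1, 7 and 8 without TAC SFA replicates 1 and 2 and TAC SFA-EAA replicates 1 and 2. Acadm, the medium-chain acyl-CoA dehydrogenase, was at 5025 and 4799 in TAC SFA against 6725 and 7316 in TAC SFA-EAA (0.51, SE 0.11, limma adjusted p = 0.126, 0.0267 after the correction). Decr1, which handles unsaturated fatty acids, was at 1954 and 1652 in TAC SFA against 2748 and 2710.4 in TAC SFA-EAA (0.60, 0.0924 and 0.0495). Etfdh, which passes electrons from fatty acid oxidation to the respiratory chain, was at 3008 and 2537 in TAC SFA against 3794 and 4376 in TAC SFA-EAA (0.56, 0.127 and 0.0326). The differences were small next to those of the matrix genes but the groups did not overlap, and the diet pair stood near the sham SFA values, 6767 and 6890.4 for Acadm. Acadm was higher still in sham SFA-EAA, at 7883 and 7895. In sham hearts 21 of the 37 members had both SFA-EAA libraries above both SFA libraries and 7 had both below. Over all genes each of these shares was 27.6%. The list's sham median was 0.16, or 0.21 after the correction. Pdk4, which blocks glucose oxidation and is counted in this list, was at 2110.2 and 1339 in TAC SFA against 1208 and 1307 in TAC SFA-EAA, groups separated by a narrow gap (-0.42, adjusted p = 0.565).

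Branched-chain amino acid catabolism, the pathway that burns leucine, isoleucine and valine, had 25 of 31 members on the higher side (median 0.29, 0.27 after the GC correction). In 22 (71.0%) both diet libraries were above, against 21.7% of all genes. Limma called 0 with deposited values (16 higher and 2 lower at an unadjusted p under 0.05) and 5 higher after the correction, Aldh6a1, Ppm1k, Mcee, Ivd and Hsd17b10. This number was 4, 0, 3 and 1 without TAC SFA replicates 1 and 2 and TAC SFA-EAA replicates 1 and 2, with 1 called lower in the last. Aldh6a1, the methylmalonate semialdehyde dehydrogenase of valine breakdown, was at 786 and 764 in TAC SFA against 1226 and 1487 in TAC SFA-EAA (0.80, SE 0.12, limma adjusted p = 0.0642, 0.00769 after the correction). Ppm1k, the phosphatase that switches on the branched-chain ketoacid dehydrogenase, was at 290.3 and 297 in TAC SFA against 461 and 557 in TAC SFA-EAA (0.78, 0.0736 and 0.0475). Mcee, the methylmalonyl-CoA epimerase, was at 288 and 211 in TAC SFA against 400.1 and 411 in TAC SFA-EAA (0.71, 0.124 and 0.0267). Dbt, the E2 subunit of that dehydrogenase, was at 259 and 244 in TAC SFA against 372 and 384 in TAC SFA-EAA (0.59, 0.124 and 0.128, so it did not pass). The E1 subunit gene Bckdha gave no such picture, with 1347 and 1435 in TAC SFA against 1898 and 781 in TAC SFA-EAA, 1 diet library above and 1 below the TAC SFA pair, and a log2 difference that was -0.19 as deposited and 0.22 after the correction. Bcat2, the transaminase that starts the pathway, was at 545 and 529.5 in TAC SFA against 677 and 477 in TAC SFA-EAA, split in the same way. In sham hearts 18 of the 31 list members had both SFA-EAA libraries above both SFA libraries and 6 had both below. The list's sham median was 0.20, or 0.10 after the correction.

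**Figure D5:**
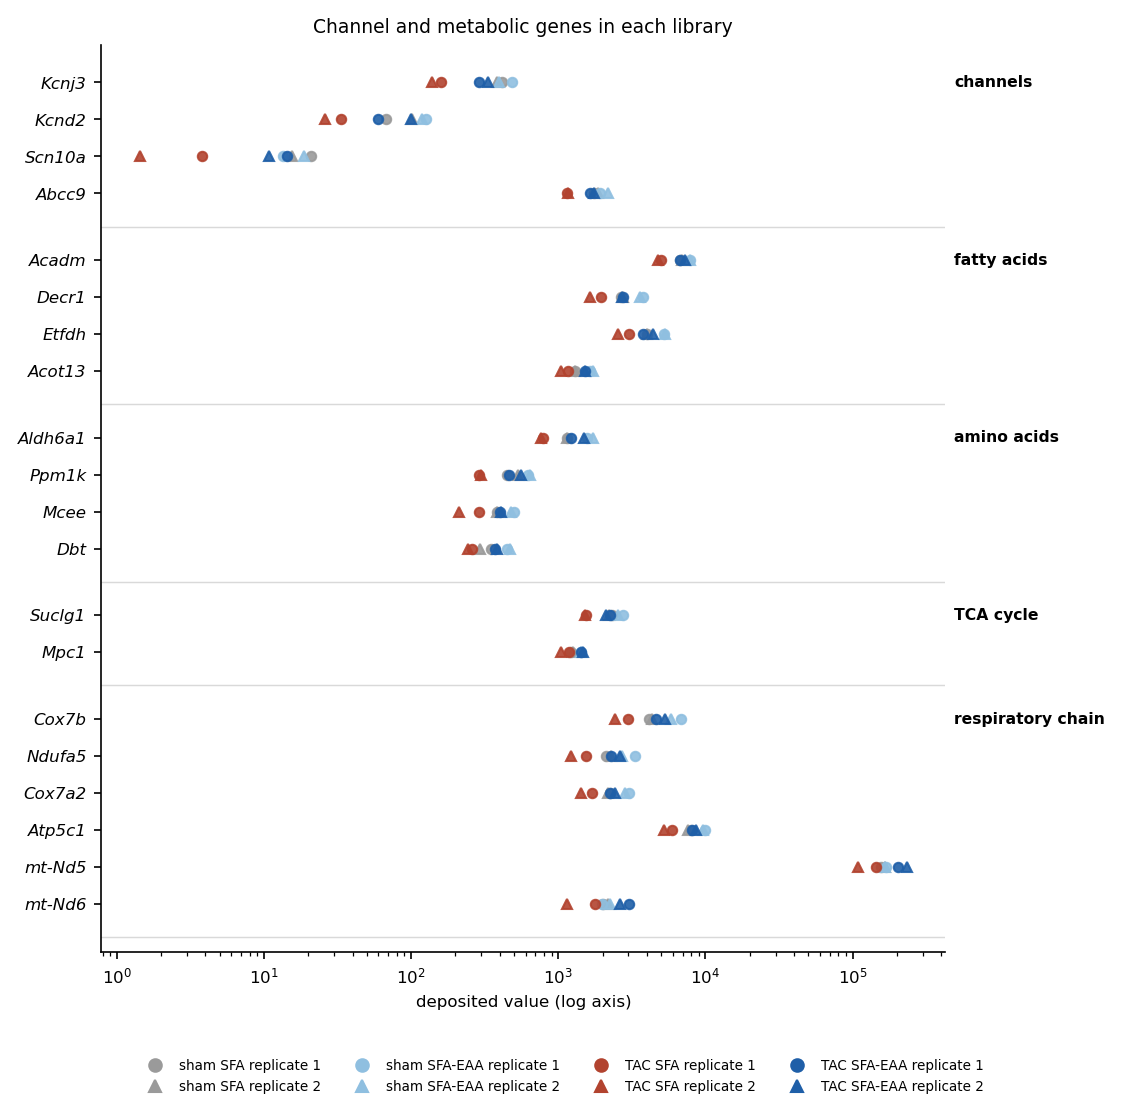
Deposited values (horizontal log axis) of channel, fatty acid, amino acid, TCA cycle and respiratory chain genes (rows) in the 8 libraries, red for TAC SFA, dark blue for TAC SFA-EAA, grey and light blue for the sham groups, circles for replicate 1 and triangles for replicate 2. In every row both dark blue symbols lie to the right of both red ones, as for Aldh6a1 at 1226 and 1487 against 786 and 764. The rows are genes named for small p-values in their lists, which favours this layout. Bckdha and Bcat2, whose diet libraries lay on both sides of the TAC SFA pair, are not drawn.

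The tricarboxylic acid cycle and pyruvate list had 26 of 30 members on the higher side (median 0.28). In 21 (70%) both diet libraries were above, against 21.7% of all genes. Limma called 0 with deposited values (15 higher at an unadjusted p under 0.05) and 3 higher after the GC correction, Idh2, Pdk2 and Suclg1. These 3 became 1, 0, 1 and 1 without TAC SFA replicates 1 and 2 and TAC SFA-EAA replicates 1 and 2. Suclg1, a subunit of succinyl-CoA ligase, was at 1550.3 and 1521 in TAC SFA against 2260.4 and 2111 in TAC SFA-EAA (0.51, limma adjusted p 0.118 and 0.0356). In sham hearts 17 of the 30 list members had both SFA-EAA libraries above both SFA libraries and 6 had both below. The list's sham median was 0.15, or 0.07 after the correction. In the nuclear oxidative phosphorylation list 64 of 82 members had a positive difference (median 0.28). Both diet libraries were above in 46 (56.1%), against 21.7% of all genes, and both were below in 0, against 21.1%. There limma called 0 with deposited values (36 higher at an unadjusted p under 0.05) and 18 higher after the correction. That number was 20, 0 and 4 without TAC SFA replicates 1 and 2 and TAC SFA-EAA replicate 2. Without TAC SFA-EAA replicate 1 it was 7 higher and 6 lower, so the direction of this list was not uniform when TAC SFA-EAA replicate 2 stood alone. Cox7b, a cytochrome c oxidase subunit, was at 2980.2 and 2444 in TAC SFA against 4609 and 5309 in TAC SFA-EAA (0.87, SE 0.14, 0.0673 and 0.0102), and Ndufa5, of complex I, at 1537 and 1219.7 in TAC SFA against 2291 and 2626 in TAC SFA-EAA (0.84, 0.0829 and 0.0115). Atp5c1, of the ATP synthase, was at 5942 and 5209 in TAC SFA against 8165 and 8581 in TAC SFA-EAA (0.59, 0.118 and 0.0231). The sham median of the nuclear oxidative phosphorylation list was 0.003, or 0.07 after the correction. There 33 members had both sham SFA-EAA libraries above both sham SFA libraries and 32 had both below.

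All 15 mitochondrially encoded genes tested had a positive difference (median 0.79, 0.43 after the GC correction). In 11 (73.3%) both diet libraries were above, against 21.7% of all genes. Limma called 0 with deposited or corrected values (8 higher at an unadjusted p under 0.05 as deposited). These genes took 27.7% and 22.1% of all deposited values in the TAC SFA libraries and 33.6% and 39.5% in the TAC SFA-EAA libraries. The share was also 37.3% and 34.7% in sham SFA-EAA against 29.2% and 30.3% in sham SFA. The complex I gene mt-Nd5 alone was at 145126 and 109279 in TAC SFA against 203240.0 and 234837 in TAC SFA-EAA (0.79, limma adjusted p = 0.228). Mitochondrial ribosomal proteins were positive in 56 of 77 genes, with a median of 0.16 and 2 called higher after the correction, Mrpl39 and Mrpl42. Cytosolic ribosomal proteins were positive in 50 of 80, with a median of 0.13 and 6 called higher after it. Without TAC SFA replicates 1 and 2 and TAC SFA-EAA replicate 2 these numbered 11, 0 and 1, and without TAC SFA-EAA replicate 1 there were 6 higher and 7 lower. As deposited, the median without TAC SFA-EAA replicate 1 was negative, -0.07, with 8 called higher and 18 lower, and without TAC SFA-EAA replicate 2 it was 0.28.

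Genes that answer to amino acids were mostly negative or near the median of all genes. Of 29 genes of amino acid sensing and mTORC1, 12 were positive, with a median of -0.03. Limma called 0 with deposited values (1 higher and 1 lower at an unadjusted p under 0.05) and 1 higher after the GC correction. This was Rragd, a Rag GTPase that recruits mTORC1 to lysosomes, at 503 and 477 in TAC SFA against 655 and 833 in TAC SFA-EAA (0.59, 0.128 and 0.0391). Sesn2, a leucine sensor that stress also induces, was at 25.6 and 32.7 in TAC SFA against 11.3 and 9.74 in TAC SFA-EAA (-1.38, 0.128 and 0.208). In the integrated stress response list 20 of 23 members had a negative difference. In 13 (56.5%) both diet libraries were below, against 21.1% of all genes. The median was -0.61, or -0.26 after the correction, and limma called 0 in both (1 higher and 8 lower at an unadjusted p under 0.05 as deposited). Without TAC SFA-EAA replicate 2 the deposited median was -0.34. Pycr1, the last enzyme of proline synthesis and a member of that list, was at 17.1 and 17.4 in TAC SFA against 5.15 and 4.95 in TAC SFA-EAA (-1.59, 0.138 and 0.135). Cth, which makes cysteine from cystathionine, lay on the other side at 0.905 and 2.26 in TAC SFA against 7.21 and 14.0 in TAC SFA-EAA, values of a few reads (2.16, 0.203). Among 21 amino acid transporters 15 were negative and 10 (47.6%) had both diet libraries below, against 21.1% of all genes. Their median was -0.27 (-0.40 to -0.15 without 1 or the other TAC SFA library). Limma called 0 (2 higher and 4 lower at an unadjusted p under 0.05). Slc7a5, the leucine transporter LAT1, was at 51.2 and 56.7 in TAC SFA against 24.7 and 29.0 in TAC SFA-EAA (-0.99, 0.203 and 0.366).

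Glucocorticoid-responsive genes had 19 of 25 members negative and 9 (36%) with both diet libraries below, against 21.1% of all genes. Limma called 0 (0 higher and 6 lower at an unadjusted p under 0.05). The median was -0.35, or -0.31 after the GC correction. This median rests on single libraries: it was -0.09 without TAC SFA replicate 1, -0.70 without TAC SFA replicate 2 and -0.15 without TAC SFA-EAA replicate 2 (-0.06, -0.78 and -0.14 after the correction). In sham hearts the median of the same list between the diets was 0.24. Zbtb16, a zinc finger repressor induced by glucocorticoids (ENSMUSG00000066687, chromosome 9, 48654297 to 48836222), was at 383 and 368 in TAC SFA against 147 and 227 in TAC SFA-EAA, and at 106 and 67.1 in sham SFA and 295 and 381 in sham SFA-EAA. On the diet it was thus lower in both TAC libraries and higher in both sham libraries. Fkbp5, a co-chaperone of the glucocorticoid receptor, showed the same layout, with 635 and 324 in TAC SFA against 164 and 227 in TAC SFA-EAA, 165 and 108 in sham SFA and 317 and 252 in sham SFA-EAA. The circadian clock list, 13 of 20 positive with 4 higher and 1 lower at an unadjusted p under 0.05, had 0 called by limma.

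The 12 largest rises and 12 largest falls after the GC correction included genes with low values on both sides, such as Grhl2 and Chodl. Grhl2, an epithelial transcription factor, was at 0.939 and 0.719 in TAC SFA against 13.3 and 6.12 in TAC SFA-EAA (2.41 and adjusted p 0.0413 after the correction). Cenpf, a kinetochore protein, was at 28.6 and 15.2 in TAC SFA against 67.7 and 94.0 in TAC SFA-EAA (1.70, 0.00751). Of the 32 cell cycle genes, however, 25 had a negative difference (median -0.49, -0.56 after the correction). In 14 of them (43.75%) both diet libraries were below, against 21.1% of all genes. Without TAC SFA replicate 1 that deposited median was -0.14 and without TAC SFA replicate 2 it was -0.86. Apln, which encodes the vascular peptide apelin, was at 41.7 and 33.7 in TAC SFA against 83.1 and 98.0 in TAC SFA-EAA (1.32, 0.031), and Fbp2, the muscle fructose bisphosphatase, at 37.9 and 39.9 in TAC SFA against 119.9 and 76.0 in TAC SFA-EAA (1.29, 0.0114). These 4 genes had both diet libraries above both TAC SFA libraries, which the rule that named them required. On the lower side, Angptl7, a secreted angiopoietin-like protein, was at 28.2 and 108 in TAC SFA against 7.17 and 2.67 in TAC SFA-EAA (-3.38, 0.031), and Star, which carries cholesterol into mitochondria for steroid synthesis, at 41.8 and 61.5 in TAC SFA against 9.29 and 12.3 in TAC SFA-EAA (-2.23, 0.0309). Chodl was listed at 0 in both diet libraries and at 8.55 and 12.1 in TAC SFA. The rule asked for a mean of 5 or more over the TAC libraries. Chodl met it only through TAC SFA (mean 10.3). Grhl2 met it only through TAC SFA-EAA (mean 9.70 against 0.829 in TAC SFA). For these genes the rule thus favoured a wide difference.

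None of the 15 marker lists had a call by limma with deposited values. The 20 macrophage markers summed to 2631 and 2279 in TAC SFA and 2081 and 2707 in TAC SFA-EAA, overlapping ranges, with 8 positive and 12 negative (1 higher and 4 lower at an unadjusted p under 0.05). The 16 endothelial markers summed to 9385 and 7631 against 8810 and 8643 (2 higher and 2 lower). All 8 epicardial and mesothelial markers were negative (median -1.55, 0 higher and 3 lower at an unadjusted p under 0.05), with sums of 39.5 and 139 against 18.5 and 25.3. In 3 of these 8 (37.5%) both diet libraries were below, against 21.1% of all genes, and in 5 the groups overlapped. All 9 adipocyte markers tested were negative too (median -1.28, 0 higher and 2 lower), with sums of 355 and 409.8 against 355 and 196. Both diet libraries were below in 3 of these 9 (33.3%), and in 6 the groups overlapped. Without TAC SFA replicate 2 these medians were -0.72 and -0.38, and the part of both cell types in the matrix differences was not tested. Smooth muscle and pericyte markers summed to 19193 and 22696 against 17913 and 14183, lower in both diet libraries. Of these 16 genes 1 was higher and 9 were lower at an unadjusted p under 0.05, and 1 was called higher after the GC correction, the channel subunit gene Abcc9. The 16 fibroblast markers all had a negative difference. In 7 of them (43.75%) both diet libraries were below, against 21.1% of all genes, and in 9 the groups overlapped. After the correction Col1a1, Col3a1, Mfap5, Serpinf1 and Pdgfra fell. The atrial marker Bmp10, the neutrophil marker Ly6g and the fast skeletal myosins Myh1, Myh2 and Myh4 were at 0 in all 8 libraries.

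The same diet contrast in sham hearts compares other libraries than the one in TAC hearts. Its p-values still depend on the TAC libraries, because the spread was estimated over all 8. Limma called 0 genes with deposited values (2437, 14.8%, at an unadjusted p under 0.05) and 0 after the GC correction (10.3% at an unadjusted p under 0.05). A limma fit of the 4 sham libraries alone also called 0 as deposited, with 3813 genes at an unadjusted p under 0.05. In 27.6% of genes both sham SFA-EAA libraries were above both sham SFA libraries, and in 27.6% both were below. Whether the diet difference itself depended on the operation was tested as an interaction, and 0 of 16432 genes passed with deposited values (902, 5.49%, at an unadjusted p under 0.05) or after the correction (8.33%). No diet difference is therefore shown to be particular to the TAC hearts. The smallest interaction p belonged to Zbtb16 (log2 difference of differences -3.01, SE 0.37, limma adjusted p = 0.306, 0.071 after the correction). Tgfb2, Hopx and Fhl1 came next among the named genes whose diet libraries lay on opposite sides under the 2 operations. Hopx, a homeodomain protein that restrains growth, was at 754 and 675 in TAC SFA against 1232 and 949 in TAC SFA-EAA, and at 1532 and 1576 in sham SFA against 1049.8 and 1036 in sham SFA-EAA. For the 8 called genes the sham diet differences had the same sign as in TAC, and their interactions did not pass (adjusted p from 0.75 for Ces1d to 0.878 for Col15a1).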

How the data were processed

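Polyadenylated RNA of the left ventricle was turned into stranded libraries for a NextSeq 500, as the labels' protocols state. Per the submitters' processing notes, the authors used STAR 2.5, GRCm38 and edgeR. How reads were counted, whether strand was used, and which annotation and filters applied is not given in the sources used here. Thus overlapping or near-identical genes could exchange reads. Each deposited value is a normalised signal per gene and library. Its values are not whole numbers and are not counts, so no count test was run, and the commonest low value, 0.823 to 1.15 by library, stands for about 1 read. No sample column was left unused. Libraries were grouped by the operation and diet in their labels.

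Values were tested as log2(value + 1) with limma-trend (limma 3.58.1, R 4.3.3), with 1 mean per group over all 8 libraries, for genes at 1 or more in at least 2 libraries. P-values are two-sided and were adjusted (Benjamini-Hochberg) over 16432 genes and a threshold of 0.05. Fold changes are powers of 2 of the log2 difference and understate changes of low genes. With 2 libraries a side, an exact permutation test of 1 gene cannot go below p = 0.333. The GC correction subtracted from each library a loess curve (span 0.3, fitted on genes with a mean of at least 20) of its genes' deviations on transcript GC content, known for 99.8% of genes from GENCODE. Of 49326 genes matched to that annotation, 91.4% had identical coordinates. The scripts were tested on simulated data. Lists were summarised by counts and medians, with 30 pathway and 15 cell type lists, and a symbol listed more than once was taken at its highest total.

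Named genes are the 12 largest rises and falls that were called (mean of 5 or more, groups apart), leaving out predicted models, the 20 smallest p-values where fewer were called, the same after the GC correction, up to 4 members of each list by p, and a panel of 26; not every one is reported. Other genes called after the GC correction are named as members of their list, after their values were seen. The members, lists, rule and alternatives were chosen with earlier results of these data known, and the crossed block and 4 motifs (TATA box, CCAAT box, GATA site and MCAT site) were added after the data had been seen. Summaries used pandas 2.3.3 and numpy 2.4.6 under Python 3.11.15, and figures matplotlib 3.10.9. The alternatives and their effects are given in the closing section.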

Additional observations from a re-analysis of the deposited data

How the results depend on the processing

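The number of genes called between TAC SFA-EAA and TAC SFA, 8 as deposited, depended on the settings. It was 0 with a pseudocount of 0.25, 0 with no filter on low values, 0 with library weights and 0 in a fit of the 4 TAC libraries alone. It was 9 with quantile normalisation, 15 with median-of-ratios scaling, 81 with a filter at 5 and 327 after the GC correction. Leaving out 1 library gave 0 to 1395 as deposited and, after the GC correction, 402, 26, 306 and 109 without TAC SFA replicates 1 and 2 and TAC SFA-EAA replicates 1 and 2. Of the 8 calls 2 were higher genes, and of the 327 after the correction 175. In sham hearts the count of 0 became 591 with library weights, leaving out 1 library gave 0 to 466, and with the GC correction the same 4 omissions gave 7, 7, 48 and 53. For the diet difference in TAC minus that in sham, the count of 0 became 3 with the replicate block and GC correction together, and 36 and 26 after the correction without TAC SFA replicate 1 and TAC SFA-EAA replicate 2. The cause of these changes was not tested.

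The correlation of same-numbered deviations between groups, before the GC correction, ranged from -0.27 to 0.04. These values gave no sign that equal replicate numbers mark paired samples. They cannot settle it, because the GC trends of the libraries enter them. With the replicate block limma called 0 genes in the TAC comparison, and 217 with the block and the GC correction. The crossed pairing, added because the correlation between the TAC groups was -0.13, gave 70.

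For 71 genes reported with values, 23 alternatives gave 1633 log2 differences, of which 11 changed sign, in 4 genes. Bckdha was 0.22 after the GC correction and 0.22 with the block and the correction. When 1 library was left out, Bckdha ran from -0.83 to 0.45, Bcat2 from -0.17 to 0.33 and Myh6 from -0.81 to 0.17. After the GC correction Bckdha was 0.23, 0.22 and 0.49 without TAC SFA replicates 1 and 2 and TAC SFA-EAA replicate 2, Myh6 0.092 and 0.20 without TAC SFA replicate 2 and TAC SFA-EAA replicate 2, and Tnfrsf12a 0.14 without TAC SFA-EAA replicate 1. The other 67 genes kept their sign under all 23 alternatives. Of the results that kept it, 99 lost their call and 261 gained one.

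Of 9 list medians, that of the mitochondrially encoded genes was 0.43 after the GC correction, with or without the block, against 0.79 as deposited. Leaving out 1 library gave medians of -1.12 to -0.72 for the hypertrophy list, -0.11 to 0.32 for ion channels, 0.22 to 0.43 for fatty acids and 0.29 to 0.35 for branched-chain amino acids. After the GC correction and without TAC SFA replicate 2 the median was -0.65 for hypertrophy, -0.30 for growth factors, 0.38 for ion channels, 0.20 for the tricarboxylic acid cycle and 0.32 for mitochondrially encoded genes. Without TAC SFA-EAA replicate 1 it was -0.71 for hypertrophy, 0.17 for the tricarboxylic acid cycle and 0.30 for mitochondrially encoded genes. Leaving out 1 library gave -1.66 to -1.13 for the matrix list (-1.53 to -1.01 after the correction) and 0.10 to 0.43 for nuclear oxidative phosphorylation (0.18 to 0.42). Genes with values of a few reads, such as Scn10a, Cth and Grhl2, are limited by depth.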

Other observations

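In the glucose uptake and glycolysis list 12 of 32 members had a positive difference between TAC SFA-EAA and TAC SFA, with a median of -0.09. Limma called 0 with deposited values (4 higher and 7 lower at an unadjusted p under 0.05), and after the GC correction 2 were called higher and 1 lower. Pfkp, the platelet form of phosphofructokinase, fell after the correction, from 503 and 600.5 in the TAC SFA libraries to 348 and 351 in the TAC SFA-EAA libraries (GC-corrected log2 difference -0.70, limma adjusted p = 0.0227). Ldhb, the lactate dehydrogenase subunit of oxidative muscle, was at 6169 and 5953 against 9156 and 7306 and rose after the correction (0.53, adjusted p = 0.0266). In the lipid droplet and lipolysis list 11 of 22 members were positive, and Dgat2, which makes triglyceride, was called higher after the correction at 0.77 with an adjusted p of 0.00695, beside Ces1d.

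The antigen presentation markers were lower on the diet in sham hearts more than in TAC hearts. Their summed level was 1806 and 1422 in sham SFA and 388 and 672 in sham SFA-EAA, against 1726 and 1157 in TAC SFA and 1302 and 963 in TAC SFA-EAA. H2-Ab1, a class II chain, had an interaction log2 difference of 1.81 (limma adjusted p = 0.85), so this contrast between the operations did not pass.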
